A study of Homo sapiens with 26 samples.

Results

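KP2 is a pool of guide RNAs against kinases, phosphatases and related genes, one of 10 gene pools that were screened in RH4 cells for an effect on muscle differentiation. Every target named in the pool's gene column was taken, other than the 7 sets of control guides that all pools share. This gave 98 targets, of 984 target measurements (956 gene names) in the 10 pools. Of the 1052 guides in KP2, 985 belonged to these targets. PTPN23 had 15 guides and each of the other 97 targets had 10.

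Guide RNAs were counted in 26 samples, all of RH4, an established rhabdomyosarcoma cell line labelled PAX3-FOXO1+, which names the fusion of the transcription factors PAX3 and FOXO1 that the cells carry. Cells infected with the KP2 library were drug selected and collected at day 7, then fixed and stained for myosin heavy chain (MYH), a contractile protein that marks differentiated muscle. They were sorted into a MYH high and a MYH low population, and the guide cassette was amplified from the genomic DNA of each. The KP2 comparison is MYH high against MYH low cells, with the same line, fusion, library and culture in both, and the labels separate the arms by the MYH stain alone.

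Rhabdomyosarcoma cells express muscle regulatory factors but keep dividing, and the fusion protein is known to hold them in that state. In normal myoblasts, leaving the cell cycle precedes the expression of myosin heavy chain. Kinases and phosphatases act on both steps: cyclin-dependent and Aurora kinases drive division, and the p38 MAP kinase pathway is known to promote the muscle gene program. In a sort of this kind, a guide that is more frequent in MYH high than in MYH low cells is one whose carriers were found more often among the strongly stained cells.

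Each arm was 1 sample, so no difference between arms had a replicate check and no test between arms was possible. MYH high cells gave 98557225 reads and MYH low cells 136084044 reads. The guide with the fewest reads had 480 in MYH high and 603 in MYH low cells. Counts were scaled to CPM, the counts of a guide per 1e6 reads of its sample. For each guide the CPM in MYH high cells was divided by that in MYH low cells on the log2 scale, and the median over the guides of a target is its value below. The SD beside a value is the spread over the guides of that target, which share a gene and are not replicates of the sort. The counting error of a guide's log2 ratio had a median of 0.0064, below the smallest SD over guides of any target (0.0455, for PPP1CA). It covers counting only, because PCR reads without molecular identifiers are not independent molecules. The number of cells sorted into each arm is not given in the sources used here. An effect of a gene therefore cannot be told apart from uneven sampling of the cells that carried its guides.

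The shared control guides gave the span of the sort. Guides against the PAX3 part of the fusion (PAX3_Fusion_DBD) summed to 30117 CPM in MYH high and 2773 CPM in MYH low cells, a log2 ratio of 2.80 (SD 1.20, 10 of 10 guides above 0). Guides against the FOXO1 part (FOXO1_fusion) summed to 30154 CPM in MYH high and 6342 CPM in MYH low cells, a log2 ratio of 2.42 (SD 0.84, 11 of 11 guides above 0). Both sets lay near the low end of their range in the other 9 pools, which was 2.71 to 4.53 for the PAX3 part and 2.25 to 4.23 for the FOXO1 part. The fusion guides took 6.03% of the reads in MYH high cells (exact 95% binomial interval 6.02 to 6.03%) and 0.911% of those in MYH low cells (0.910 to 0.913%), intervals that likewise cover counting error only. The median guide of KP2 had 0.942 times the CPM in MYH high cells that it had in MYH low cells. That median was subtracted from all log2 ratios of the pool, after which the negative-control guides lay at -0.00 (SD 0.07, 10 guides). PCNA, a DNA replication factor, also had a median of -0.00, with a wider SD over its 7 guides of 0.24. MYOD1, a master muscle transcription factor, had -0.05 (SD 0.17, 10 guides). Guides against stretches of PAX3 and FOXO1 labelled as outside the fusion had 0.02 (SD 0.11, 10 guides) and 0.15 (SD 0.14, 9 guides). Values given below without centring keep the pool's median of -0.09, so the negative-control guides lie near -0.09 there, not at 0.

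Guides against mitotic kinases stood at the high end of KP2, and guides against the p38 alpha kinase at the low end. AURKA, CDK1 and AURKB had values of 0.71, 0.54 and 0.35, the only 3 of 98 targets at or above 0.3 on the log2 scale (1.23-fold). MAPK14 had -0.31, the only target at or below -0.3. All 4 were small beside the values of the fusion guides. A target was called high or low at this size. The rule called 3.06% of KP2 targets high and 1.02% low, and in the other 9 pools it called 12 of 885 measurements high (1.36%) and 6 low (0.678%). Without pool CF3, where the negative-control guides had a median of 1.30, the other pools had 1.28% high and 0.513% low.

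**Figure D1:**
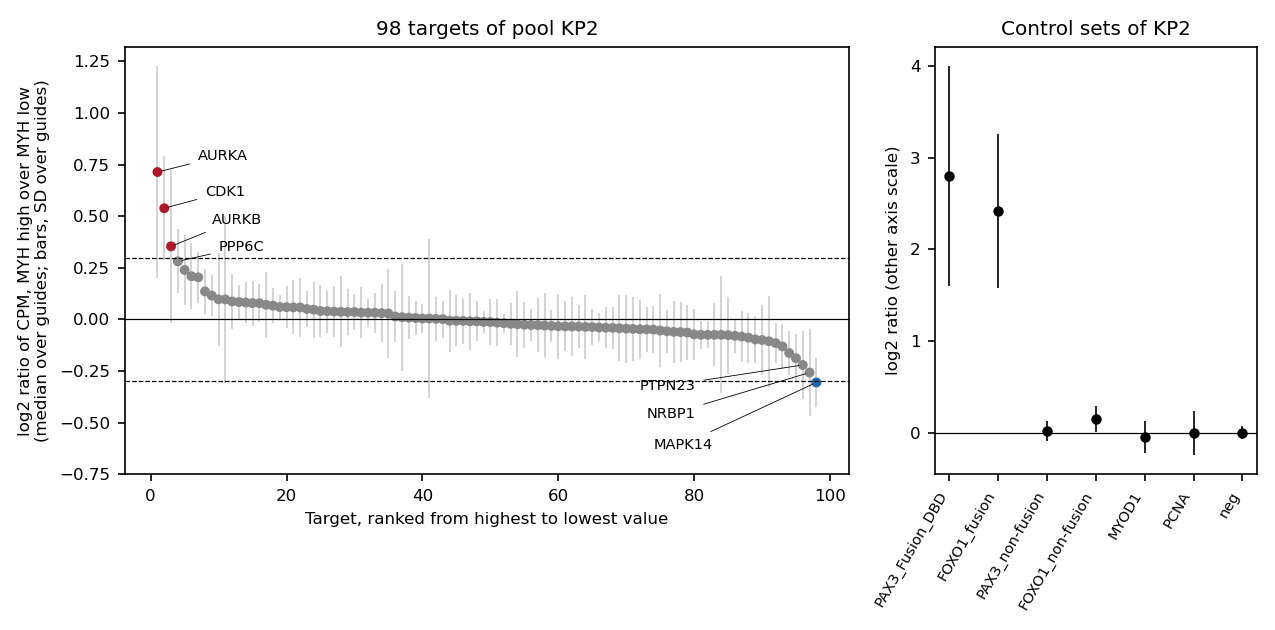
Left, the log2 ratio of CPM in MYH high over MYH low cells for the 98 targets of KP2 in order of value (points, median over guides; bars, SD over guides; dashed lines, the size of 0.3). Right, the control sets on another axis scale: AURKA at 0.71 and MAPK14 at -0.31 stand at the ends of the targets, and the 2 fusion sets lie at 2.80 and 2.42.

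AURKA encodes Aurora A, a kinase of the centrosome and spindle poles. Its 10 guides summed to 11370 CPM in MYH high and 8415 CPM in MYH low cells. The median of the log2 ratios was 0.71 (1.64-fold, SD 0.51), and 8 of 10 guides were above 0. The guides fell apart: 6 lay between 0.69 and 1.22, and the other 4 between -0.26 and 0.29. The guide sgRNA7070 had 1195 CPM in MYH high and 545 CPM in MYH low cells (1.22), and sgRNA7076 had 1213 CPM in MYH high and 585 CPM in MYH low cells (1.14). At the other end, sgRNA7075 had 577 CPM in MYH high and 732 CPM in MYH low cells (-0.26). The SD over the guides of AURKA was the highest of all 98 targets. Its value nonetheless stayed between 0.69 and 0.74 when any 1 guide was left out.

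CDK1 encodes the kinase that, with its B-type cyclins, starts mitosis. Its guides summed to 9589 CPM in MYH high and 7190 CPM in MYH low cells, with a median log2 ratio of 0.54 (1.45-fold, SD 0.25). Its guides were more alike than those of AURKA. The guide sgRNA7136 was lower in MYH high cells, at 395 CPM against 452 CPM in MYH low cells (-0.11). The other 9 guides lay between 0.28 and 0.71, of which 7 reached 0.3. The highest, sgRNA7134, had 957 CPM in MYH high and 619 CPM in MYH low cells.

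AURKB encodes Aurora B, the kinase of the chromosomal passenger complex, which corrects chromosome attachment and acts in cytokinesis. Its guides summed to 7834 CPM in MYH high and 6763 CPM in MYH low cells, with a median of 0.35 (1.28-fold, SD 0.37). Single guides ran from -0.28 for sgRNA7080, at 572 CPM in MYH high and 735 CPM in MYH low cells, to 0.98 for sgRNA7086, at 857 CPM in MYH high and 462 CPM in MYH low cells. The SD over guides was wider than the value itself, and 5 of 10 guides reached 0.3. Leaving out 1 guide moved the value between 0.29 and 0.42, so the call could be lost with 1 guide. It was also lost without the centring (0.27) and with the summed CPM of the guides (0.298), while AURKA (0.63 and 0.52) and CDK1 (0.45 and 0.50) kept theirs.

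MAPK14 encodes p38 alpha, the stress-activated MAP kinase named above. Its guides summed to 8343 CPM in MYH high and 10536 CPM in MYH low cells, with a median of -0.31 (0.809-fold, SD 0.12). All 10 guides were below 0, between -0.38 and -0.03. The lowest, sgRNA7404, had 518 CPM in MYH high and 717 CPM in MYH low cells. The highest, sgRNA7406, had 1144 CPM in MYH high and 1236 CPM in MYH low cells. The guides thus agreed in direction and in size more closely than those of the 3 targets called high, but the value lay just inside the size of 0.3. It was -0.26 as a mean over guides and -0.25 from the summed CPM, and between -0.32 and -0.29 with 1 guide left out, so the call depended on the summary.

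**Figure D2:**
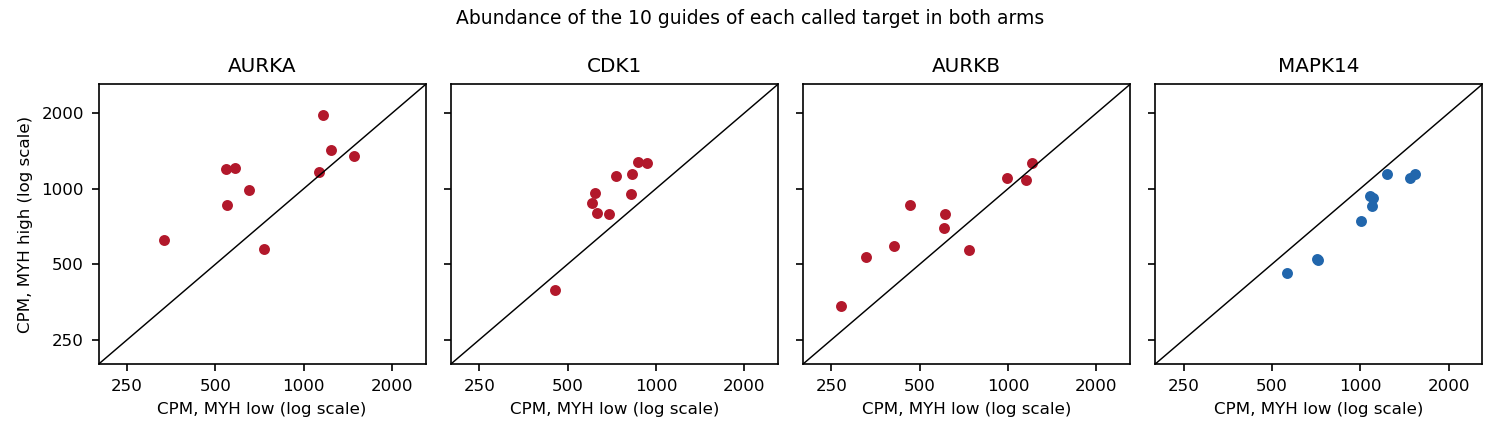
CPM of each of the 10 guides in MYH high cells (vertical axis, log scale) against MYH low cells (horizontal axis, log scale) for the 4 called targets; the line marks equal CPM. Of the AURKA guides, 6 lie well above the line and 4 near or below it, while all 10 MAPK14 guides lie below it.

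Next to the threshold on the high side came PPP6C, the catalytic subunit of protein phosphatase 6, which is known to remove the activating phosphate of Aurora A. Its guides summed to 10240 CPM in MYH high and 9234 CPM in MYH low cells, with a median of 0.28 (SD 0.15) and 9 of 10 guides above 0. CDC25B, the phosphatase that activates CDK1 by removing inhibitory phosphates, had 7812 CPM in MYH high and 6947 CPM in MYH low cells. Its median was 0.24 (SD 0.17), with all 10 guides above 0, from 0.02 to 0.54. CDC25B, BUB1, PPP4C and MAPK15 were the only 4 targets of KP2 with every guide above 0 after centring. Their lowest guides lay at 0.02, 0.01, 0.04 and 0.002. The median that centring subtracted was -0.09, so without it none of the 4 had every guide above 0.

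On the low side, NRBP1, a pseudokinase, came next. Its guides summed to 8115 CPM in MYH high and 10213 CPM in MYH low cells, with a median of -0.26 (SD 0.21). Of its 10 guides 9 were below 0, down to -0.57 for sgRNA7478, at 508 CPM in MYH high and 802 CPM in MYH low cells. PTPN23, a phosphatase-like protein of endosomal sorting with the ESCRT machinery, had 11102 CPM in MYH high and 13960 CPM in MYH low cells over its 15 guides. Its median was -0.22 (SD 0.17) and 14 of 15 guides were below 0; the exception, sgRNA7782, had 527 CPM in MYH high and 486 CPM in MYH low cells (0.20). OXSR1, a STE20-family kinase that WNK kinases activate to control ion transport, had 10955 CPM in MYH high and 13287 CPM in MYH low cells. Its median was -0.19 (SD 0.12). OXSR1 and MAPK14 were the only 2 targets with every guide below 0 after centring.

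**Figure D3:**
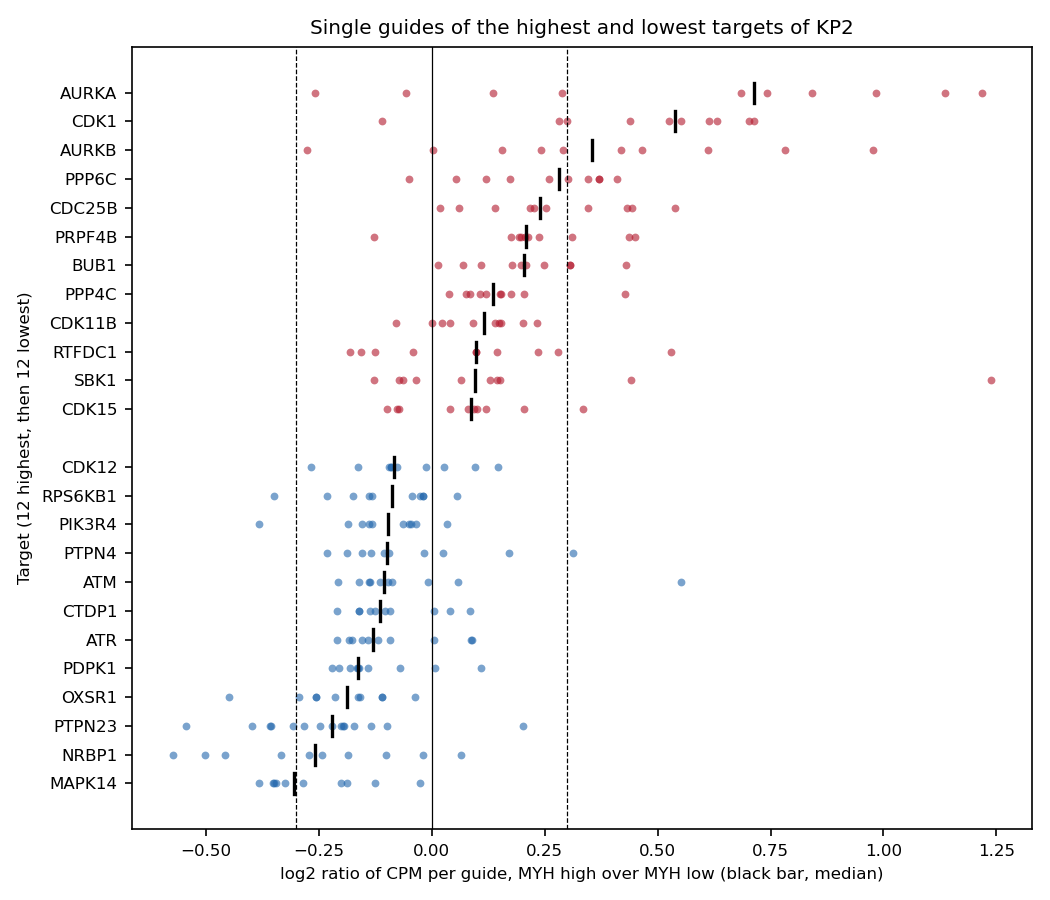
Log2 ratio of CPM in MYH high over MYH low cells of every guide (points) for the 12 highest and 12 lowest targets of KP2, with the median of each target (black bars) and the size of 0.3 on both sides (dashed lines). Guides of AURKA spread from -0.26 to 1.22, whereas those of MAPK14 stay between -0.38 and -0.03.

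Most of the pool lay near 0. Of the 98 targets, 81 were within 0.1 of 0 and 88 within 0.2, with a median of -0.01 and quartiles of -0.05 and 0.04. After centring, 43 targets were above 0 and 55 below, and without it 12 were above 0 and 86 below, so the sign of a value this close to 0 rests on the centring. Centring on the negative-control guides also gave 43 above 0 and 55 below. Without centring these control guides lay near -0.09 themselves, so 0 on that scale was not the level of the controls. Single guides of targets ran from -0.68 to 1.24. The SD over the 98 values was 0.13, against 0.07 in KP1, the other kinase and phosphatase pool, whose values ran from -0.30 to 0.25. The SD of KP2 includes AURKA, CDK1 and AURKB (0.71, 0.54 and 0.35), all above the highest KP1 value. It therefore does not describe the bulk of the pool. The median SD over the guides of a target was 0.12 in KP2 and 0.11 in KP1.

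By family, the mitotic and cell cycle kinases held all 3 targets called high. The lists were chosen with earlier results of these data known, so this describes the targets and is no independent support for a family. Of the 9 measured, 3 were called high and 0 low, with a median of 0.08 against -0.01 over all 98 targets. All 9 were above 0 after centring, on the median guide or on the negative-control guides. Without centring 4 of 9 were above 0, and the list's median was -0.00. BUB1, a kinase of the spindle checkpoint, followed the 3 called members at 0.20 (SD 0.12), with 10586 CPM in MYH high and 9781 CPM in MYH low cells. PKMYT1, which holds CDK1 inactive, had 0.08. The kinases of G1 and S phase were nearer 0, at 0.06 for CDK4, 0.06 for CDK6 and 0.00 for CDK2.

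NEK2, a kinase of centrosome separation, had a median of 0.00 but 1 guide far from the others. The guide sgRNA7461 had 1016 CPM in MYH high and 484 CPM in MYH low cells, a log2 ratio of 1.16. The other 9 guides of NEK2 lay between -0.18 and 0.14. SBK1, a serine/threonine kinase on none of the lists, showed the same pattern, with a median of 0.10. Its guide sgRNA7862 had 2011 CPM in MYH high and 904 CPM in MYH low cells (1.24), against -0.13 to 0.44 for its other 9 guides. These 2 guides and 2 of AURKA were the only 4 guides of any target at or above 1, and 0 were at or below -1.

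The kinases of transcription and splicing differed in direction among themselves. None of the 5 was called, with a median of 0.06, or -0.03 without centring. PRPF4B, a kinase of the splicing machinery, had 11480 CPM in MYH high and 10241 CPM in MYH low cells, at 0.21 (SD 0.16) with 9 of 10 guides above 0. CDK11B, which acts in transcription and splicing, had 0.12 (SD 0.10), also with 9 of 10 guides above 0. CDK9 and CDK12, which phosphorylate the tail of RNA polymerase II during elongation, both had -0.08, with 3 of 10 guides above 0 each. CDK10 had 0.06. CTDP1 and SSU72, phosphatases of the same polymerase tail, had -0.11 and -0.06, so all 4 of these enzymes of the polymerase tail lay within 0.2 of 0. PHOSPHO1, a phosphatase of bone mineralization, had -0.02. With CTDP1 and SSU72 it made up a gene list of 3 measured phosphatases, of which 0 were called (median -0.06).

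Among the MAP kinase cascades, MAPK14 stood alone. It was the 1 of 4 called, and the median of the 4 was 0.00, or -0.08 without centring. MAPK15 and MAPK6, both atypical MAP kinases, had 0.04 (SD 0.13) and -0.03 (SD 0.16). MAP3K6, an upstream kinase of stress cascades, had 0.04 (SD 0.09). MAP2K3, one of the kinases that activate p38, was in KP1 and had a value of -0.11 (SD 0.13) there, with 8495 CPM in MYH high and 9723 CPM in MYH low cells. Of the STE20 kinases, OXSR1 at -0.19 was followed by PAK1 (-0.04) and PAK4 (0.03), with 0 of 3 called and a median of -0.04. WNK4, which activates OXSR1, had -0.08 (SD 0.08) in KP2. WNK1, which also activates OXSR1, had -0.30 (SD 0.15) in KP1, just short of the size for a call, with 9490 CPM in MYH high and 11733 CPM in MYH low cells and 9 of 10 guides below 0. The KP1 genes named here were picked after their values were seen, and other close relatives in KP1 did not side with their KP2 counterparts. BUB1B, which acts with BUB1 in the spindle checkpoint, had -0.07 (SD 0.12) in KP1, beside 0.20 for BUB1 in KP2. CDC25A, of the same family as CDC25B, had -0.02 (SD 0.07) in KP1, beside 0.24 for CDC25B in KP2. NRBP2, the paralog of NRBP1, had 0.03 (SD 0.10) in KP1, beside -0.26 for NRBP1 in KP2. Further kinases of the cell cycle in KP1 lay above 0 without a call, at 0.25 for PLK1, 0.15 for CDC7, 0.14 for WEE1 and 0.14 for PLK4, while CDK7 had -0.08.

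The PI3K, AKT and mTOR pathway lay below 0 in all 5 measured members, although 0 were called. Its median was -0.09, against -0.01 over the 98 targets. PDPK1, which phosphorylates AKT and other AGC kinases, had 9155 CPM in MYH high and 10633 CPM in MYH low cells, at -0.16 (SD 0.10) with 8 of 10 guides below 0. PIK3R4, the regulatory subunit of the class III PI3-kinase VPS34, had -0.10 (SD 0.12) and RPS6KB1, the S6 kinase downstream of mTOR, had -0.09 (SD 0.12), each with 9 of 10 guides below 0. MTOR had -0.05 and AKT2 -0.03. The 6 AGC kinases, 2 of which (PDPK1 and AKT2) are also on the pathway list, were likewise all below 0, with a median of -0.04. PRKCZ, an atypical protein kinase C, had -0.07, GRK6, a kinase of G-protein-coupled receptors, had -0.04, and PRKACG, a catalytic subunit of protein kinase A, had -0.04. In the 3 DNA damage and PI3K-related kinases, of which MTOR is also on the pathway list, the median was -0.11. ATR, the kinase of stalled replication forks, had 11948 CPM in MYH high and 13486 CPM in MYH low cells, at -0.13 (SD 0.11). ATM, the kinase of double-strand breaks, had -0.11 (SD 0.22); 1 of its guides lay at 0.55.

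**Figure D4:**
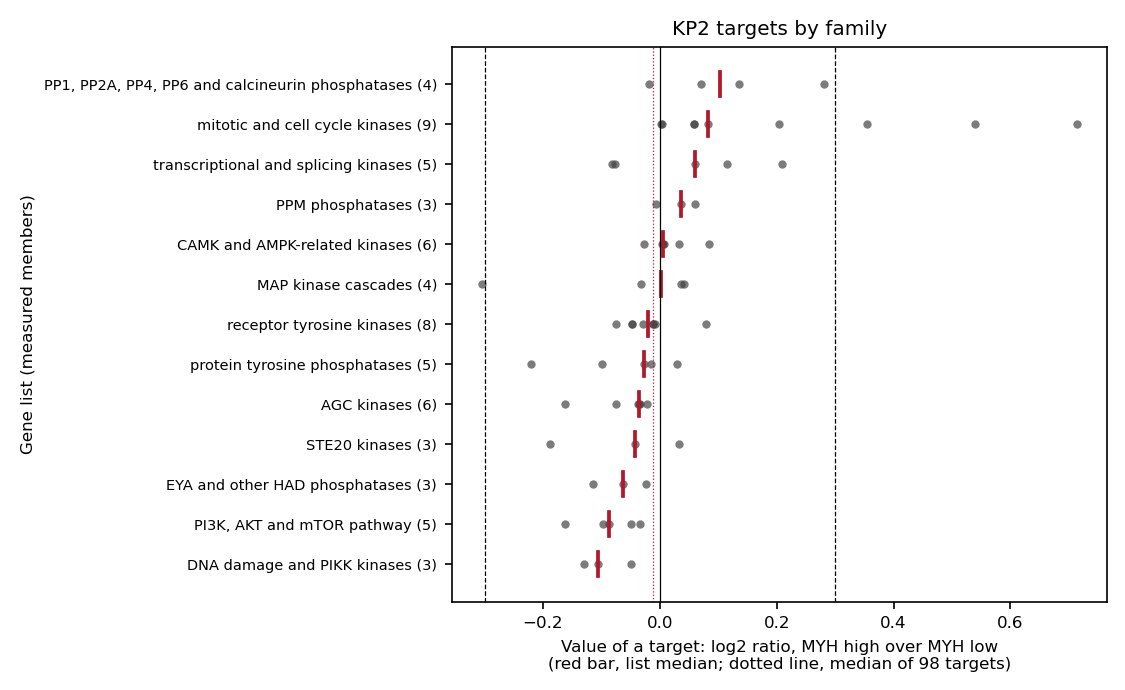
Values of KP2 targets (points, log2 ratio of CPM in MYH high over MYH low cells) on the 13 gene lists with at least 3 measured members, with the median of each list (red bars), the median of all 98 targets (dotted line) and the size of 0.3 (dashed lines). The mitotic and cell cycle kinases reach 0.71, while the PI3K, AKT and mTOR pathway lies between -0.16 and -0.03.

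Receptor tyrosine kinases, which relay growth factor signals from the cell surface, showed small values. Of the 8 measured, 0 were called and the median was -0.02. PDGFRA, a receptor for platelet-derived growth factors, was the highest at 0.08 (SD 0.11, 8 of 10 guides above 0), and ERBB4, a receptor of the EGF receptor family, the lowest at -0.07 (SD 0.06, 8 of 10 guides below 0). ALK and AATK both had -0.05. The 6 growth factor ligands in the pool (PGF, PDGFA, PDGFC, VEGFA, VEGFC and VEGFD), a group formed after the values were seen, lay between -0.07 and -0.01, and 0 were called. In the calcium/calmodulin and AMPK-related kinases 0 of 6 were called, with a median of 0.01, or -0.08 without centring. STK11, the tumour suppressor LKB1, was the highest of them at 0.08 (SD 0.08) and came to -0.00 without centring. CAMK2A and CAMK2D had 0.03 and 0.01, and MARK2, a microtubule-regulating kinase, had -0.03.

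Of the phosphatases, the catalytic subunits of the PP1, PP2A, PP4, PP6 and calcineurin group had the highest median of the 13 lists with at least 3 measured members, at 0.10, or 0.02 without centring, with 0 of 4 called. After PPP6C (0.28) came PPP4C, the catalytic subunit of protein phosphatase 4, with 8898 CPM in MYH high and 8424 CPM in MYH low cells. Its median was 0.14 (SD 0.11), and its 10 guides lay between 0.04 and 0.43. PPP3CA, a catalytic subunit of calcineurin, had 0.07 (SD 0.16) and PPP1CA, a catalytic subunit of protein phosphatase 1, had -0.02 (SD 0.05). PPP2CA, the catalytic subunit of protein phosphatase 2A, was in KP1 and had 0.10 (SD 0.11) there; it too was picked after its value was seen. The metal-dependent PPM phosphatases PPM1J, PPM1H and PPM1G had 0.06, 0.04 and -0.01, with 0 of 3 called and a median of 0.04, or -0.05 without centring. Apart from PTPN23, the protein tyrosine phosphatases lay near 0, with a median of -0.03 over 5 and 0 called. PTPN4 had -0.10 (SD 0.17) and PTPN5 -0.03 (SD 0.13). PTP4A3 had 0.03 (SD 0.22), and 1 of its guides lay at 0.64.

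Among the 27 targets on none of the kinase or phosphatase lists, values ran from -0.26 for NRBP1 to 0.10 for RTFDC1, a factor of replication termination now named RTF2, and 0 were called. RTFDC1 had guides from -0.18 to 0.53 (SD 0.22). CDK15, of the list of other cyclin-dependent-like kinases, was also among the 12 highest targets, at 0.09 (SD 0.13). The 43 targets of KP2 outside the rule for named genes lay between -0.08 and 0.08, with a median of -0.01. Their SDs over guides ran from 0.05 to 0.28. The 7 lists with only 1 or 2 measured members, among them the focal adhesion kinase PTK2, JAK1, GSK3B and the lipid phosphatase SACM1L, had 0 called targets and medians between -0.06 and 0.11.

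Another pool also carried 7 of the KP2 genes, with no guide identifier in common, so that its own sort gave a second value. CDK1 was called high in both. In CF2 its guides summed to 4334 CPM in MYH high and 3354 CPM in MYH low cells. Its value there was 0.60 (SD 0.33, 9 of 10 guides above 0), beside 0.54 in KP2. The sorts differed in span and zero. In CF2 the fusion sets lay at 4.53 and 4.23, against 2.80 and 2.42 in KP2, and the negative-control guides of CF2 at -0.09. Values of CF2 and KP2 are therefore not on the same scale. With each pool on its own centring, CDK6 was the gene that differed most. It had 0.06 (SD 0.14, 7 of 10 guides above 0) in KP2 and 0.39 (SD 0.14, 10 of 10 guides above 0) in CF1. Its guides summed to 8216 CPM in MYH high and 8226 CPM in MYH low cells in KP2, and to 8581 CPM in MYH high and 7066 CPM in MYH low cells in CF1. The gap of 0.33 between the pools was larger than either SD over guides, and it rests on 1 sort of each pool. Each pool was centred on its own median guide, and the negative-control guides lay at 0.07 in CF1 and -0.00 in KP2. The span differed as well, with the fusion sets at 3.24 and 2.88 in CF1, against 2.80 and 2.42 in KP2. CDK2 and CDK12 were also higher in CF1 than in KP2. How much of the gap is an offset or a difference in span between pools was not tested. In 4 other genes the pools were within 0.11 of each other. CDK2 had 0.00 in KP2 and 0.09 in CF1, and CDK12 had -0.08 in KP2 and 0.02 in CF1. CDK9 had -0.08 in KP2 and -0.13 in CF2, and CTDP1 had -0.11 in KP2 and -0.10 in CF2, where it had 15 guides. CDK10 had 0.06 in KP2 and -0.15 in CF3. In CF3 the negative-control guides lay at 1.30, far from those of KP2, so the values of CDK10 do not share a zero and cannot be compared. The sequences of the guides are not used here, so whether guides in both pools cut at the same sites is not known.

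**Figure D5:**
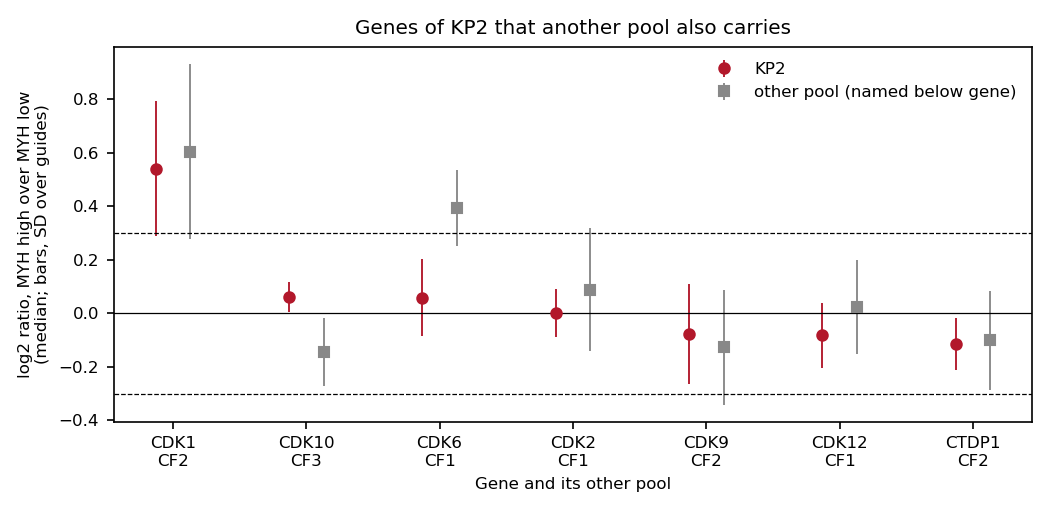
Log2 ratio of CPM in MYH high over MYH low cells for the 7 genes measured in KP2 (red circles) and in another pool (grey squares, pool named under the gene); bars, SD over guides; dashed lines, the size of 0.3. CDK1 is near 0.54 and 0.60 in its pools, whereas CDK6 is at 0.06 in KP2 and 0.39 in CF1. Each pool is centred on its own median guide.

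CDK1 and CDK9 were also in an exon scan library, which was sorted for MYH and, in a separate arm, kept in culture from day 3 to day 18 without a sort. Ratios there were centred on that library's negative-control guides. The 5 CDK1 guides had a median of 0.24 (SD 0.19) in the sort, MYH high over MYH low, with 4 of 5 above 0. In culture, day 18 over day 3, they had a median of -0.81 (SD 0.52), with 4 of 5 below 0. The guide CDK1_e5.1 had 389 CPM in MYH high and 305 CPM in MYH low cells (0.44), and 221 CPM at day 18 and 432 CPM at day 3 (-1.19). The guide CDK1_e3.1 had 497 CPM in MYH high and 541 CPM in MYH low cells (-0.03), and 585 CPM at day 18 and 471 CPM at day 3 (0.09). Guides of CDK1 with more loss in culture had higher sort ratios in this library, in the same order over all 5, which is a description of 5 guides of 1 gene. The 6 CDK9 guides had a median of -0.11 (SD 0.07) in the sort, with 0 above 0, and -0.23 (SD 0.26) in culture, with 5 of 6 below 0. They ran the other way from those of CDK1. The 3 CDK9 guides with the most loss in culture (-0.32, -0.54 and -0.59) had the 3 lowest sort ratios (-0.17, -0.16 and -0.11), and CDK9_e3.1, at 0.05 in culture, had the highest (-0.01). Loss of KP2 guides from culture was not measured in the KP2 samples, and its part in the values of KP2 was not tested.

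The authors' deposited table of model scores for KP2 gave the same ends of the pool. In the authors' deposited table, 2 targets had a positive score (beta) and a false discovery rate of at most 0.05 in the column fdr, AURKA (0.401) and CDK1 (0.324). In the authors' deposited table, 4 targets had a negative score at that rate: NRBP1 (-0.182), MAPK14 (-0.179), PTPN23 (-0.162) and OXSR1 (-0.141). AURKB had a score of 0.256 with a false discovery rate of 0.25 in the authors' deposited table. By the Wald test of the authors' deposited table, 0 targets with a positive score and 1 with a negative score, PTPN23 (0.0423), had a rate of at most 0.05. That Wald test also left out the 2 fusion sets, which had the highest scores of the authors' deposited table (2.27 and 1.58). Its counts therefore cannot tell targets with an effect from targets without one. Over the 98 targets, the score in the authors' deposited table and the median log2 ratio had the same sign for 85, with a Spearman correlation of 0.907. Both come from the same reads, and targets are not independent replicates.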

How the data were processed

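For each sample the authors deposited the raw counts of reads assigned to every guide, made from cassettes amplified by PCR from genomic DNA of the sorted RH4 cells, per the labels' protocols. The submitters' processing notes name FastQC and MAGeCK, without versions; how reads were trimmed and matched to guides is not given in the sources used here. The authors also deposited a table for KP2 with scores of a model (beta, z) and, for every target, p-values with false discovery rates, per the file headers; the log base of beta is not stated, and for 3 control sets its guide numbers differ from those in the counts.

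Library and arm of each sample were taken from its label. A guide needed at least 10 counts in the arms together, which all KP2 guides had, so all 98 targets were measured. Counts were scaled to CPM, a pseudocount of 1 CPM was added, the log2 ratios were centred on the pool's median guide, and the median over at least 3 guides was the value of a target. A call is a rule of size (0.3, or 1.23-fold), not a test. Named genes were the called targets, the 12 highest and 12 lowest, the targets next to each threshold, up to 4 members farthest from 0 of each list with at least 3 measured, genes shared with another pool, the control sets, and single guides at or beyond 1; any others named (such as PKMYT1, CDK4, AKT2 and WNK4) were picked after their values were seen. Of 22 gene lists, 20 had a member in KP2, covering 71 targets. The members and lists were chosen with earlier results of these data known. Alternatives were other centrings, pseudocounts, count minimums, summaries, sizes and a guide rule. Before use, the procedure was run on simulated counts of the KP2 guides, with both arms drawn around the mean of the KP2 arms. The simulated effects were absent or well beyond the size for a call, and the control sets had no shift. That run therefore did not test calls near the size of 0.3, unequal depths or the offset that centring removes. Of the target names, 95 were current symbols and 3 older symbols of RefSeq's gene table (GRCh38.p14). No guide sequences and no coordinates are given, because the files pair guides with gene names alone and name no build. Python 3.11.15, numpy 2.4.6, pandas 2.3.3, scipy 1.17.1 and matplotlib 3.10.9 were used.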

Additional observations from a re-analysis of the deposited data

How the results depend on the processing

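With 1 sample per arm, the results of KP2 have no check beyond the spread over guides. Centring on the negative-control guides, a pseudocount of 10 CPM and a rule of at least 8 in 10 guides on the side of the call each left the same 3 targets called high (AURKA, CDK1 and AURKB) and the same 1 called low (MAPK14). A minimum of 1000 counts removed 0 guides, so it left all values as they were and tested nothing. Without centring, 3 were called low (MAPK14, NRBP1 and PTPN23) and 2 high, without AURKB. The mean over guides called 0 low and the same 3 high. The summed CPM of the guides called 0 low and 2 high, again without AURKB. At a size of 0.2, 7 targets were called high, adding PPP6C, CDC25B, PRPF4B and BUB1, and 3 low, adding NRBP1 and PTPN23. Of 440 recomputed values of the 55 named targets over 8 settings, 432 moved by less than the SD over guides. Of these, 55 were under that minimum and moved by 0. The 8 that moved by more did so without centring, which lowers every value by the same 0.09. They are the named targets whose SD over guides is below that shift. Centring on the negative-control guides shifts every value by the same 0.002, and leaving out 1 guide moves a median little. The settings thus largely fixed the count of 432, which is no measure of robustness. None of the 4 called targets changed sign in any setting run. No paired analysis was possible because each arm was 1 sample.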
